A study of Caenorhabditis elegans with 15 samples.

Results

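The data described here are the response of whole adult nematodes to the lowest concentration of a procyanidin fraction, and the genes that had already changed at it. Of the 15 arrays of the study, 6 enter this comparison: 3 arrays of worms incubated with the fraction H3 at 0.02 mg/mL (named H3 0.02 here) and 3 arrays of the negative control (named NK in the labels). All 29317 probe sets of the array were members. H3 is the fraction enriched in oligomeric procyanidins, which are chains of epicatechin units, from an extract of leaves of Combretum mucronatum. About 500 to 1000 wild-type N2 worms were kept as young adults for 6 h at 20 °C in M9 buffer, and per the study's methods every group, the control included, contained 1% DMSO as solubiliser. By the same methods, worms were first washed to remove bacteria, and no food is named for the 6 h in any group. The labels call the control untreated and do not mention DMSO, and their protocol text gives concentrations of up to 0.2 mg/mL where the sample labels reach 2 mg/mL. Each array holds the RNA of 1 pool of whole worms, and the 3 arrays of a group were biological replicates, so that fewer cells of a type and less RNA per cell cannot be told apart. The other arrays, of H3 at 0.2 and 2 mg/mL and of the crude extract RE, entered the common fit, and the H3 arrays among them are used below only beside genes that are described at 0.02 mg/mL.

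Procyanidins are plant polyphenols that bind proteins, above all those rich in proline, and are taken in by plant-feeding and gut-dwelling animals alike. Worms meet such compounds at the cuticle and in the intestine, which is at once the digestive, fat-storing and main detoxifying tissue of C. elegans. Its responses to foreign chemicals include modifying enzymes (cytochromes P450), conjugating enzymes (glutathione S-transferases and UDP-glucuronosyltransferases), export pumps of the ABC family, and chaperones that hold damaged proteins in solution.

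At 0.02 mg/mL, 183 of the 29317 probe sets differed from the control (limma, an adjusted p after Benjamini and Hochberg not above 0.05 and a change of 2-fold or more), which is 0.624% of those tested. Of these, 89 were higher (0.304%), for 83 genes or pairs of near-identical genes, and 94 were lower (0.321%), for 91 genes or pairs. The rises were larger than the falls. Their log2 fold-changes ran from 1.01 to 5.55 with a median of 2.14, and 48 of the 89 reached a log2 fold-change of 2, whereas the falls ran from −1.002 to −3.17 with a median of −1.44, and 9 of the 94 reached −2. Over all probe sets the median log2 fold-change was −0.0046. Counts of called list members below stand beside the 0.624% of all probe sets. In every one of the 183 the 3 treated arrays all lay on one side of the 3 controls, as did 5.3% of all probe sets in the upward and 5.16% in the downward direction. Of the protein-coding genes that rose, 43.8% are known by a sequence name only, of those that fell 45.3%, and of all protein-coding genes measured 42.3%.

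The arrays fell into 2 sets along the principal component that held 52.0% of the variance, and in both groups replicates 1 and 2 were in one set and replicate 3 in the other. The comparison could therefore be made within each set. As the groups do not overlap for any of the 183, the direction within each set was fixed by the choice of probe sets, and the sizes are a description. The median difference of the higher ones was 2.11 between replicates 1 and 2 of each group and 1.85 between the arrays of replicate 3, and that of the lower ones was −1.51 and −1.31. A difference of at least 2-fold was present in replicate 3 alone for 79 of the 89 and for 68 of the 94. With the 6 arrays fitted alone 38 probe sets were called, 37 of them among the 183. With the set of arrays as a block 408 were called, among them all 183. On leaving out each of the 6 arrays in turn, 98 of the 183 (55 higher and 43 lower) were called every time, and each gene below whose call was lost in such a fit is given with the arrays concerned or the number of fits in which it was called.

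**Figure D1:**
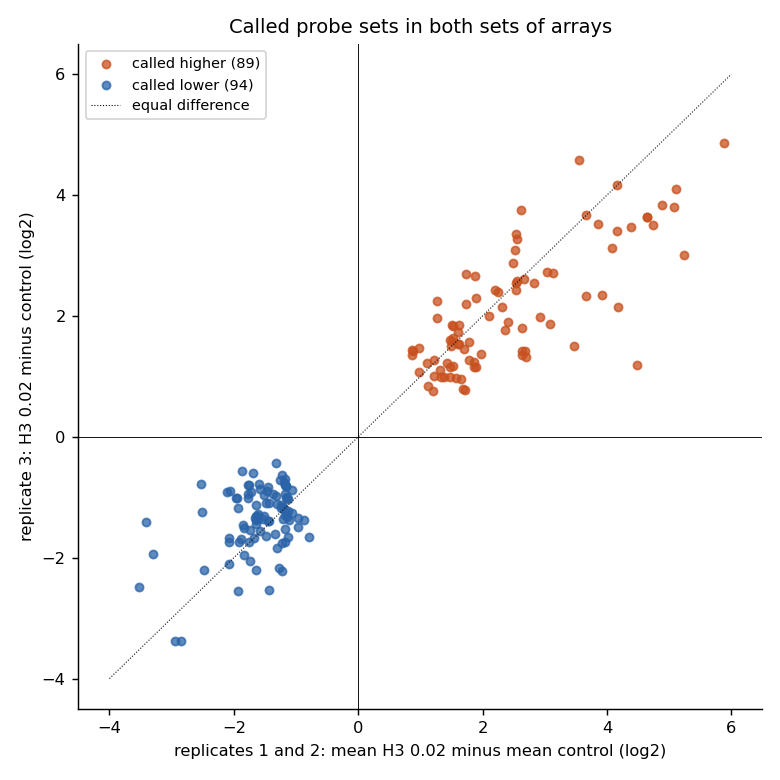
Each point is 1 of the 183 called probe sets. The horizontal axis gives its log2 difference between H3 0.02 and control as the means of replicates 1 and 2, the vertical axis the same difference in replicate 3, and the dotted line marks equal differences. In replicate 3, 79 of the 89 higher and 68 of the 94 lower points reach a 2-fold difference; that no point changes sign follows from the choice of the probe sets.

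The array's values do not state which probe sets were above background. Array medians over all probe sets lay between 3.54 and 3.65 (log2), and 25 of the 89 higher probe sets had all 3 controls at or below them. For such genes the true change can be larger than the measured one, and levels of different probe sets are not compared with each other. Likewise, 28 of the 94 lower probe sets had all 3 treated arrays at or below the median.

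The study names 9 genes coding for proteins with repeats rich in proline or for other structural-looking proteins. All 9 were higher, by 2.07 to 5.55 on the log2 scale with a median of 3.74, and clx-1 had the largest rise of all probe sets. The study chose this list on these arrays, so that its direction is not independent evidence. All 9 were called on leaving out any single array, but only 4 with the 6 arrays fitted alone. Neither clx-1 nor T22D1.2 was among the 4 (adjusted p = 0.0894 and 0.0927 in that fit). clx-1 had levels of 3.07, 3.50 and 1.93 on the control arrays and of 9.31, 9.03 and 6.799 on the treated arrays, a log2 fold-change of 5.55 ± 0.59 (SE; 3 against 3 arrays; adjusted p = 0.000442). The groups were far apart, and replicate 3 was the lowest array of both. T22D1.2, whose protein resembles proline-rich salivary proteins of mammals, went from 2.24, 2.76 and 2.56 to 7.93, 7.55 and 5.57 (log2 fold-change 4.49 ± 0.48, adjusted p = 0.000487). The treated replicate 3 was well below the other two but still above every control. C50F7.5 was high in the control already, at 10.32, 10.57 and 9.15, and rose to 13.11, 13.02 and 12.89 (2.99 ± 0.28, adjusted p = 0.000148), with little difference among the treated arrays. H12D21.6 rose by 3.74 ± 0.23 and Y46H3D.8 by 3.89 ± 0.26. K01A6.8 had the smallest spread of the group: controls of 4.81, 5.03 and 5.04 became 7.61, 7.57 and 7.66, a log2 fold-change of 2.65 ± 0.11 (adjusted p = 1.6e-07).

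Some of these genes belong to the srlf class, a nematode gene family of unknown function, of which 30 members were measured. Among them 4 rose, 1 fell and the median log2 fold-change of all 30 was 0.07. This family was chosen after its values were seen. srlf-12, srlf-14 and srlf-13 lie next to each other on the chromosome and rose by 2.07 ± 0.21, 4.08 ± 0.26 and 4.54 ± 0.24. srlf-13 had control levels of 2.28, 2.42 and 2.72 and treated levels of 7.23, 7.25 and 6.55, with adjusted p = 8.87e-07. srlf-3, elsewhere in the genome, rose by 2.73 ± 0.32. srlf-32 went the other way, from 8.005, 7.73 and 7.43 to 6.87, 6.52 and 6.63 (−1.05 ± 0.19, adjusted p = 0.0218; called in 2 of the 6 fits without 1 array).

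**Figure D2:**
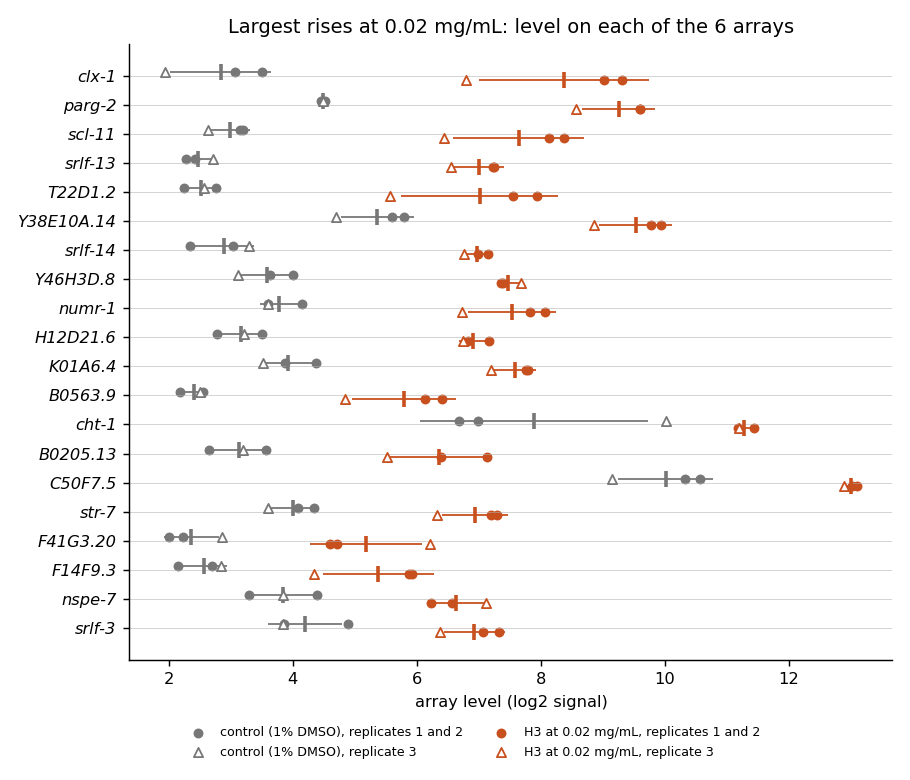
The 20 largest rises among called probe sets of 1 gene, ordered by log2 fold-change, with the log2 level on each array. Circles are replicates 1 and 2, triangles replicate 3, vertical ticks the group means and horizontal bars 1 SD (3 arrays). No treated array overlaps a control array of the same gene, and cht-1 is the gene whose control replicate 3 (10.01) lies far from its other controls (6.99 and 6.68).

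The small heat shock proteins of the hsp-16 family, chaperones that bind unfolding proteins without ATP, separated into members with rises among the largest measured and members that stayed below the array medians. Of 4 genes or pairs measured, 2 rose, with a list median of 2.37. The study picked members of this family from these arrays. The probe set shared by hsp-16.48 and hsp-16.49 read 3.92, 4.11 and 4.88 in the control and 8.62, 8.71 and 8.51 at 0.02 mg/mL (log2 fold-change 4.31 ± 0.21, adjusted p = 2.76e-07). The probe set shared by hsp-16.1 and hsp-16.11 read 4.37, 4.84 and 5.64 against 9.23, 9.45 and 9.15 (4.33 ± 0.25, adjusted p = 2.06e-06), and another probe set of the same pair gave 3.91 ± 0.17. Which gene of each pair gave the signal cannot be told apart, since the probe sets match both. hsp-16.2 read 1.83, 1.69 and 1.85 in the control and 2.11, 2.24 and 2.29 after treatment (0.42 ± 0.19, adjusted p = 0.653). hsp-16.41 gave 0.42 ± 0.20 (adjusted p = 0.725), and neither was shown to be above background in either group.

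Among 13 other heat shock proteins 1 probe set rose, with a list median of 0.24. It matches F44E5.4 and F44E5.5, inducible members of the Hsp70 family, at 3.30, 3.28 and 3.75 in the control and 7.73, 7.22 and 5.90 in treated worms (3.51 ± 0.40, adjusted p = 0.000722). hsp-70, another inducible Hsp70, read 1.97, 1.66 and 1.81 against 2.01, 2.34 and 2.26 (0.39 ± 0.13, adjusted p = 0.403). None of 16 genes of the unfolded protein response of the endoplasmic reticulum was called (log2 fold-changes −0.06 to 0.72), nor any of 10 of the mitochondrial one (−0.60 to 0.27). At an unadjusted p under 0.05, 4 of the 16 were higher and 1 of the 10 was lower. hsp-4, the BiP chaperone of the endoplasmic reticulum, had a log2 fold-change of 0.38 ± 0.22, and hsp-6, the mitochondrial Hsp70, of 0.14 ± 0.10.

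Of 20 metal-responsive genes 1 was called, and the list median was 0.15. numr-1, which codes for a nuclear protein induced by metals, rose from 4.15, 3.59 and 3.60 to 8.07, 7.82 and 6.73 (3.76 ± 0.36, adjusted p = 0.000204). Its near relative numr-2 stayed at low values (0.33 ± 0.16, adjusted p = 0.755). cdr-4, a cadmium-responsive gene, was at 3.97, 3.99 and 3.69 in the control and 7.15, 6.93 and 5.13 in treated worms. The groups did not overlap, but the treated arrays spread widely, and its log2 fold-change of 2.52 ± 0.58 had an adjusted p of 0.0834, or 0.00605 with replicate numbers as a block over the 15 arrays and 0.0580 with the same block over the 6. The metallothionein mtl-1, a metal-binding protein, gave −0.98 ± 0.35 (adjusted p = 0.425), and the other metallothionein, mtl-2, 0.04 ± 0.61.

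In the detoxification families single members changed while the medians stayed near 0. The share called was 1.89% of ABC transporters and 2.17% of glutathione S-transferases, beside 0.624% of all probe sets. Of the 46 glutathione S-transferases, 20 lay at or below the array medians on all arrays of both groups. Among 53 ABC transporters 1 rose (median 0.06), pgp-6, an export pump of the P-glycoprotein type, from 6.20, 6.14 and 5.41 to 8.72, 8.58 and 8.29 (2.62 ± 0.22, adjusted p = 7.52e-05). Among 46 glutathione S-transferases 1 rose (median −0.07), gst-24, by 1.25 ± 0.20 (adjusted p = 0.00871; not called without H3 0.02 replicate 1 or control replicate 2, with 1.15 to 1.34 over the fits without 1 array). gst-9 gave 1.798 ± 0.43 (adjusted p = 0.102, or 0.0153 with the replicate block). gst-4, a widely used reporter of the stress regulator SKN-1, had a log2 fold-change of −0.72 ± 0.26 (adjusted p = 0.433). gcs-1, which makes the first enzyme of glutathione synthesis and is another SKN-1 target, gave −0.01 ± 0.10. nit-1, a nitrilase that SKN-1 also controls, rose by 2.30 ± 0.19, with control levels of 4.29, 3.81 and 3.60 and treated levels of 6.33, 6.28 and 5.99 (adjusted p = 7.52e-05). It was the 1 riser among 15 SKN-1 targets other than glutathione S-transferases (13.3% called, median −0.01). The other called member, C32H11.4, fell, with a log2 fold-change of −1.43 (adjusted p = 0.0292, called only without control replicate 3). Of 19 antioxidant enzymes none was called (median −0.07; 1 higher and 2 lower at an unadjusted p under 0.05). sod-4, an extracellular superoxide dismutase, gave 1.14 ± 0.30 (adjusted p = 0.156, or 0.0196 with the replicate block).

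The calls among cytochromes P450 and UDP-glucuronosyltransferases were mostly falls. Of 74 cytochromes P450 (median −0.03) 1 rose and 3 fell (5.41% called, beside 0.624% of all probe sets). On all arrays of both groups, 39 of the 74 lay at or below the array medians. cyp-14A5 rose by 2.26 ± 0.40 (adjusted p = 0.0183), a call that was lost without control replicate 1 or 3 or without H3 0.02 replicate 1 or 2 (1.96 to 2.62). cyp-34A9 fell from 8.03, 7.80 and 7.66 to 6.20, 6.26 and 5.99 (−1.68 ± 0.20, adjusted p = 0.000983), and its arrays were tight in both groups. cyp-37B1 gave −1.11 ± 0.15. cyp-25A2 gave −1.32 ± 0.27 and was called in 1 of the 6 fits, that without H3 0.02 replicate 3 (−1.12 to −1.62 over the fits), and was not called with replicate numbers as a block (adjusted p = 0.0510). Of 67 UDP-glucuronosyltransferases (median −0.05) none rose and 4 fell (5.97% called), and 24 of the 67 lay at or below the array medians throughout. The largest fall was that of ugt-44, from 5.98, 5.67 and 5.17 to 3.60, 3.89 and 3.51 (−1.94 ± 0.22, adjusted p = 0.000701), next to which on the chromosome lies ugt-43 (−1.095 ± 0.13; not called without control replicate 3, with −0.997). ugt-12 fell from 6.69, 6.42 and 6.60 to 5.04, 4.85 and 5.24 (−1.53 ± 0.15). fmo-2, a flavin monooxygenase induced by fasting and low oxygen, was the only one of 5 such enzymes called, and went from 7.77, 8.08 and 7.65 to 5.58, 5.31 and 5.44 (−2.39 ± 0.22, adjusted p = 0.000148). fmo-1 gave −1.21 ± 0.30 (adjusted p = 0.129, or 0.00285 with the replicate block).

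The largest group of rising neighbours lay in the nspe family, small secreted-type peptides found in nematodes only. Of 8 members 3 rose and none fell (37.5% called, beside 0.624% of all probe sets, median 1.49). nspe-7 went from 3.30, 4.38 and 3.85 to 6.23, 6.56 and 7.12 (2.80 ± 0.30, adjusted p = 0.000535), nspe-8 rose by 2.56 ± 0.24 and nspe-1 by 2.03 ± 0.24. nspe-2 gave 1.33 ± 0.32 (adjusted p = 0.108, or 0.0188 with the replicate block). Replicate 3 was the highest treated array for nspe-7. The list follows genes that the study picked from these arrays. Between nspe-8 and nspe-7 lies Y38E10A.14, which rose more than its neighbours, from 5.79, 5.60 and 4.69 to 9.95, 9.78 and 8.86 (4.17 ± 0.42, adjusted p = 0.00026), by the same 4.17 in both sets of arrays. These 4 genes form the longest run of called genes that follow each other on a chromosome. In all, 21 of 164 called genes that could be placed had a called gene as direct neighbour, in 9 runs, of which 7 ran in one direction. ddn-1 and B0507.8 rose together by 2.50 ± 0.24 and 2.27 ± 0.25. In contrast, srlf-3 rose beside spp-8, which fell by 1.102, and F52E1.14 rose by 1.505 beside F52E1.5, which fell by 1.496.

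Genes of the immune response were called in both directions. The share called was 3.17% of antimicrobial peptides, 8.33% of pathogen response genes, 1.61% of C-type lectins, 2.7% of pals genes and 18.8% of lysozymes, beside 0.624% of all probe sets. The study names cnc-11, irg-2, clec-166, ilys-2 and lys-2, among others, from these arrays, so that these shares are not independent evidence. Of 63 antimicrobial peptides 2 rose (median −0.04): cnc-11, a caenacin, by 1.61 ± 0.25 (adjusted p = 0.00741) and fipr-26 by 1.62 ± 0.25 (adjusted p = 0.0073). Of 12 pathogen response genes 1 rose, irg-2, from 3.93, 4.05 and 4.31 to 6.55, 6.68 and 5.74 (2.23 ± 0.38, adjusted p = 0.0133). The call of irg-2 was lost without replicate 1 or 2 of either group (2.05 to 2.52). irg-5 gave 1.42 ± 0.75 (adjusted p = 0.822, or 0.0343 with the replicate block). Of 249 C-type lectins, sugar-binding proteins that often follow infection, none rose and 4 fell (median −0.04). However, 152 of the 249 lay at or below the array medians on all arrays of both groups, so not shown to be above background. clec-166 gave −1.44 ± 0.22 and clec-76 −1.65 ± 0.26, the latter not called without control replicate 2 (−1.58). pals-32, of a family linked to intracellular infection, was the 1 of 37 called (1.14 ± 0.21, adjusted p = 0.0215); its call held in 1 of the 6 fits without an array, that without control replicate 1. Lysozymes, which cut bacterial cell walls, moved both ways. ilys-2 rose by 2.71 ± 0.44 (not called without H3 0.02 replicate 1 or 2; 2.40 to 3.00), whereas lys-4 gave −1.45 ± 0.26 and lys-2 −1.21 ± 0.21, each called in 2 of the 6 fits without an array. ilys-3, at 5.54, 4.95 and 4.40 in the control and 8.27, 8.14 and 6.40 in treated worms, had a log2 fold-change of 2.64 ± 0.64 and an adjusted p of 0.106, or 0.0168 with the replicate block.

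Several families of digestive and lysosomal proteins held falling members and few or no rising ones. Of 28 saposin-like proteins, which bind or pierce lipid membranes and include the pore-forming caenopores, 6 fell and none rose, with a list median of −0.15. Of 11 cathepsin-type cysteine peptidases, enzymes that break down proteins in the gut and in lysosomes, 3 fell and none rose (median −0.38). Of 8 lysosomal lipases 2 fell and none rose (median −0.52). The study's text names saposin-like proteins and a cysteine peptidase from these arrays, and the lipase list also follows genes the study picked from them. These counts are therefore not independent evidence, and they stand beside 0.321% of all probe sets called lower. None of 17 aspartyl proteases and none of 20 subunits of the vacuolar ATPase, which acidifies lysosomes, was called (log2 fold-changes −0.73 to 0.45 and −0.25 to 0.40; at an unadjusted p under 0.05, 1 higher and 1 lower of the former and none of the latter).

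The largest fall of all was that of cpr-2, a peptidase of the cathepsin B type, from 7.48, 6.36 and 6.85 to 3.13, 3.68 and 4.37 (−3.17 ± 0.35, adjusted p = 0.000581, or 0.0725 with the 6 arrays fitted alone). cpr-3 fell from 6.16, 5.74 and 5.69 to 4.07, 4.36 and 4.15 (−1.67 ± 0.23). cpr-1 stayed high while it fell, from 10.91, 11.18 and 10.75 to 9.74, 9.90 and 10.11 (−1.03 ± 0.17, adjusted p = 0.0112; not called without H3 0.02 replicate 1 or 2 or control replicate 2, with −1.13 to −0.92). cpr-6, another cathepsin B type peptidase, gave −0.03 ± 0.16, and cpr-9 −1.76 ± 0.41 (adjusted p = 0.0958, or 0.0244 with the replicate block). spp-1, a caenopore, read 8.60, 8.44 and 8.64 in the control and 6.95, 6.82 and 7.33 in treated worms (−1.53 ± 0.19, adjusted p = 0.0014). spp-3 fell from 8.79, 8.61 and 8.30 to 6.82, 7.04 and 7.36 (−1.49 ± 0.17, adjusted p = 0.000722), and its chromosomal neighbour spp-2 gave −1.68 ± 0.27 (not called without H3 0.02 replicate 2 or control replicate 1 or 2, with −2.097 to −1.46 over the fits without 1 array). The log2 fold-changes of spp-25, spp-5 and spp-8 were −1.24, −1.22 and −1.102. Of these 6, spp-1, spp-3 and spp-25 were called on leaving out any single array, and the calls of spp-5 and spp-8 held only without control replicate 3 (−1.04 to −1.19 for spp-8). None of these 6 genes was called with the 6 arrays fitted alone.

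lipl-1, a lysosomal lipase that is induced when worms fast, fell from 7.20, 7.36 and 5.78 to 3.55, 4.41 and 3.84 (−2.84 ± 0.38, adjusted p = 0.00231, or 0.154 with the 6 arrays fitted alone). lipl-2 gave −1.88 ± 0.31 (adjusted p = 0.0112; not called without control replicate 1 or 2, with −2.13 to −1.59). lipl-3 was at 8.04, 8.24 and 8.39 against 5.66, 5.60 and 6.71, without overlap, and its log2 fold-change of −2.23 ± 0.53 had an adjusted p of 0.0962, or 0.00425 with the replicate block. Among 75 glycosidases and lysosomal hydrolases 1 rose and 3 fell (median −0.08). nuc-1, a DNase of the lysosome, fell by 1.05 ± 0.14, from 8.19, 8.44 and 7.97 to 7.10, 7.14 and 7.22 (adjusted p = 0.00231; not called without control replicate 2, with −0.93). gba-4, a glucocerebrosidase-like enzyme, fell by 1.35 ± 0.17, while gbh-2, the other falling member of that list, is a carnitine synthesis enzyme rather than a hydrolase (−1.002 ± 0.16; not called without control replicate 1 or H3 0.02 replicate 2, with −1.06 to −0.94). cht-1, a chitinase, was the rising member, with controls of 6.99, 6.68 and 10.01 and treated levels of 11.44, 11.18 and 11.20 (3.38 ± 0.61, adjusted p = 0.0192). Its difference was 4.48 in replicates 1 and 2 and 1.19 in replicate 3, and the call held only without control replicate 3 (4.44).

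**Figure D3:**
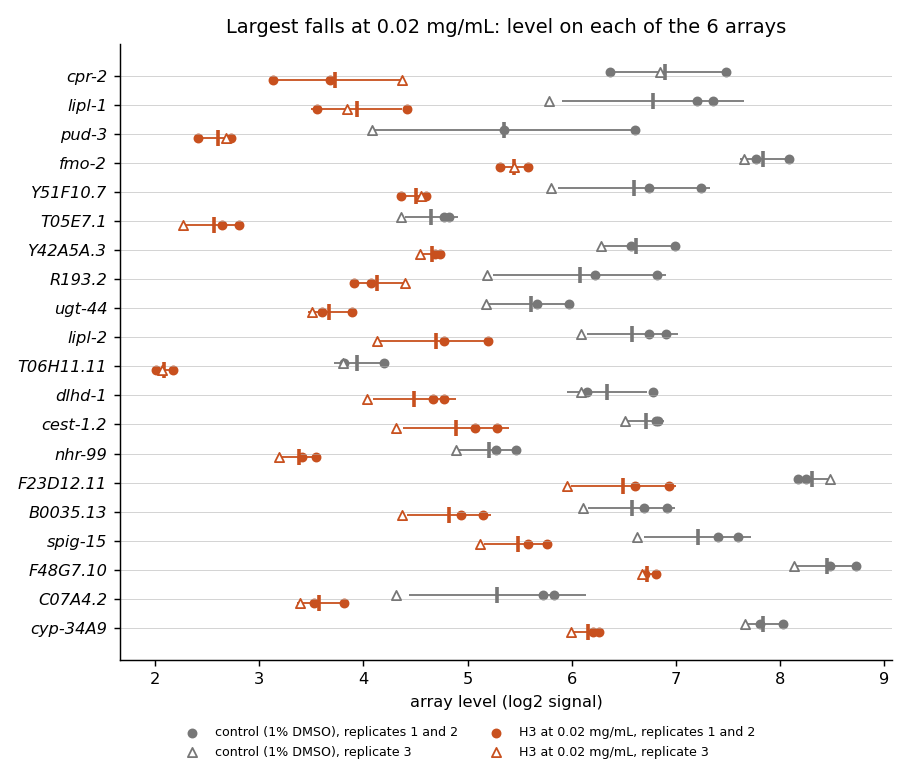
The 20 largest falls among called probe sets of 1 gene, ordered by size, with the log2 level on each array; symbols as in the plot of the rises. All treated arrays lie below all controls of the same gene, with the smallest gap for C07A4.2, where control replicate 3 is the lowest control; its call (−1.71) held only without that array.

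Several proteins of fat metabolism fell beside the lipases. Of 16 elongases and desaturases of fatty acids 2 fell and none rose (12.5% called, beside 0.624% of all probe sets, median −0.20). They were elo-5, from 7.94, 8.19 and 7.01 to 6.51, 6.45 and 6.23 (−1.32 ± 0.25, adjusted p = 0.0237), and elo-6, from 7.89, 7.92 and 7.20 to 6.42, 6.45 and 6.30 (−1.27 ± 0.22, adjusted p = 0.0131). Both take part in making branched-chain fatty acids, and both calls held only without control replicate 3 (−1.67 and −1.51). Of 8 fatty acid and retinol binding proteins far-8 fell by 1.40 ± 0.19 and far-7 by 1.14 ± 0.21, the latter called only without control replicate 2 (−1.29 to −0.92 over the fits). The median of these 8 was 0.03, and 5 of them had positive log2 fold-changes. Of 23 genes of the fasting response 3 fell and none rose (median −0.21): lipl-1, lipl-2 and fmo-2, which are described above. The control worms, too, had been washed to remove bacteria. None of 5 vitellogenins and none of 9 lipid binding proteins was called (1 lower and none at an unadjusted p under 0.05).

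The pud genes, named as proteins that accumulate in worms with reduced insulin signalling, were among the deepest falls. The 2 probe sets of the pair pud-1.1 and pud-1.2 gave −3.03 ± 0.53 (adjusted p = 0.0155) and −3.09 ± 0.52 (adjusted p = 0.0131). The former read 11.45, 11.50 and 10.29 in the control and 8.58, 8.69 and 6.90 after treatment, and both calls were lost without control replicate 1 or 2 (−3.42 to −2.45 for the former). Replicate 3 was the lowest array of both groups, and its difference (−3.39) was larger than that of the other replicates (−2.85). pud-3 fell from 5.35, 6.61 and 4.08 to 2.73, 2.42 and 2.68 (−2.74 ± 0.46, adjusted p = 0.0121; not called without H3 0.02 replicate 1 or 2 or control replicate 1). The pair pud-2.1 and pud-2.2 (−2.73 ± 0.69, adjusted p = 0.135) and pud-4 (−2.70 ± 0.70, adjusted p = 0.152) had log2 fold-changes of similar size and did not pass. With replicate numbers as a block their adjusted p was 0.0950 and 0.146 over the 15 arrays, and 0.00809 and 0.0138 over the 6. With dod-17 (−1.18 ± 0.22; called only without control replicate 1), 3 of 13 genes or pairs of this list fell and none rose (median −0.25). None of these 3 was called with the 6 arrays fitted alone. The study names pud genes from these arrays.

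**Figure D4:**
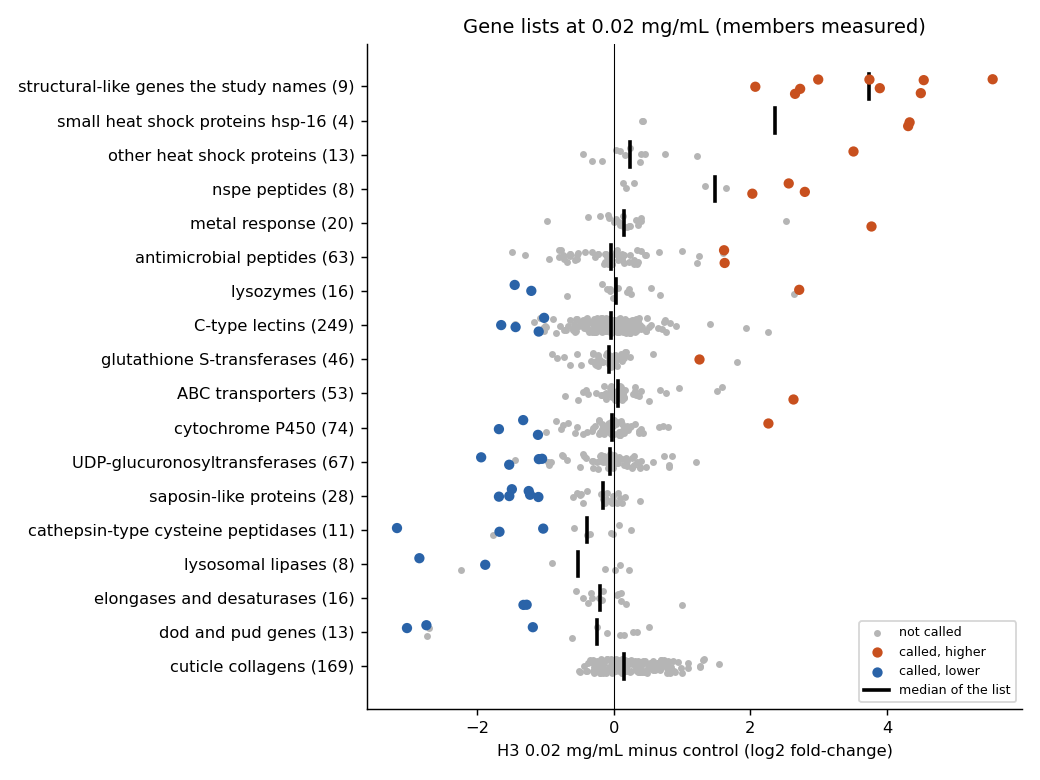
Each point is 1 gene or pair of a list, with its log2 fold-change of H3 0.02 against control on the horizontal axis; orange and blue points were called higher and lower, grey points were not called, and black bars are list medians. Called members lie far from their list's median in the large families, whereas the structural-like genes named by the study lie wholly to the right of 0.

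Other large changes belonged to genes outside these groups. parg-2, a poly(ADP-ribose) glycohydrolase that removes ADP-ribose chains from proteins, was at 4.51, 4.46 and 4.48 on the control arrays and at 9.59, 9.60 and 8.58 on the treated arrays (4.77 ± 0.41, adjusted p = 9.63e-05). Its neighbour npr-44, a neuropeptide receptor gene, rose by 1.53 ± 0.26 (not called without H3 0.02 replicate 1 or 2 or control replicate 1; 1.43 to 1.64). scl-11 was the only one of 24 genes for secreted SCP-like proteins called, from 3.15, 3.20 and 2.63 to 8.38, 8.13 and 6.43 (4.65 ± 0.73, adjusted p = 0.00791; not called without H3 0.02 replicate 1 or 2, with 4.29 to 5.26). Of 199 chemoreceptors of the srr and str families srr-6 (2.36 ± 0.35) and str-7 (2.93 ± 0.49) rose, the latter not called without H3 0.02 replicate 1 or 2 or control replicate 2 (2.72 to 3.23). That share, 1.01%, stands beside 0.624% of all probe sets. On all arrays of both groups, 195 of the 199 lay at or below the array medians.

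Genes of amino acid metabolism and transport were chosen after their values were seen, since no list covered them. asns-2, an asparagine synthetase, rose from 9.96, 10.09 and 9.49 to 11.54, 11.51 and 11.34 (1.62 ± 0.15, adjusted p = 0.000148). phdh-1, which opens the synthesis of serine, rose by 1.40 ± 0.23 (called in 3 of the 6 fits without an array, with 1.23 to 1.66) and cdo-1, which breaks down cysteine, by 1.06 ± 0.19 (called only without control replicate 1). Of 8 sulp anion transporters sulp-2 rose by 2.24 ± 0.42 (called only without H3 0.02 replicate 3) and sulp-8 by 1.03 ± 0.17 (not called without H3 0.02 replicate 2 or control replicate 3). cat-4, the GTP cyclohydrolase needed to make serotonin and dopamine, fell from 8.01, 7.83 and 7.05 to 6.41, 6.27 and 6.18 (−1.34 ± 0.21, adjusted p = 0.00755; not called without control replicate 2). nhr-99 was the only one of 274 nuclear hormone receptors called, from 5.27, 5.47 and 4.88 to 3.41, 3.54 and 3.19 (−1.82 ± 0.31, adjusted p = 0.0135; called in 2 of the 6 fits without an array). That share, 0.365%, is below the 0.624% of all probe sets.

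Most large structural, energy and cell type lists held no call. None of 169 cuticle collagens was called (median 0.16, 119 positive and 50 negative), and none of 70 abu and pqn proteins, which carry glutamine and asparagine repeats (median 0.20, 56 positive and 14 negative). At an unadjusted p under 0.05, 3 of the collagens and 2 of the abu and pqn proteins were higher and none lower. The same held for calls among 43 genes of the respiratory chain and ATP synthase (median −0.09) and 75 ribosomal proteins (median −0.09), of which 4 and 11 were lower at an unadjusted p under 0.05. Markers fixed for intestine (23 genes, median −0.08), germline and oocyte (22, −0.05), sperm (30, −0.08), embryo (15, −0.02), body wall muscle (16, 0.10), pharynx (11, 0.29), neurons (19, 0.04) and hypodermis (14, 0.11) gave no call either. At an unadjusted p under 0.05, 2 pharynx markers were higher and 1 lower. In the intestine list 1 was higher and 1 lower, and 1 neuron marker was higher. Mean list levels spread over the control arrays, from 5.27 to 6.67 for collagens and 5.775 to 6.75 for abu and pqn proteins. The germline list ran from 9.31 to 10.25 and the sperm list from 4.59 to 6.12. For these lists the lack of a call does not show unchanged levels. The mean level of the intestine list was 8.26 to 8.88 on the control arrays and 8.13 to 8.62 on the treated arrays, and its median was −0.17 between the arrays of replicates 1 and 2 and −0.06 between those of replicate 3. Within it pho-1, an acid phosphatase of the intestine, gave −1.77 ± 0.82 (adjusted p = 0.698) and pept-1, its peptide transporter, −1.18 ± 0.47 (adjusted p = 0.543, or 0.0494 with the replicate block). The mean level of each of these marker lists lay above the array medians on every array of both groups, and their part in the results was not tested.

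The levels at the higher concentrations show which of these genes kept changing. All 89 higher and all 94 lower probe sets lay on the same side of the control at 0.2 and at 2 mg/mL, where the same control arrays served. The median log2 fold-change against control of the higher ones was 2.14, 2.201 and 2.27 at 0.02, 0.2 and 2 mg/mL, and that of the lower ones −1.44, −1.62 and −1.66. As the probe sets were chosen for their change at 0.02 mg/mL, the comparison of these medians is a description only. The direct steps do not use the control. However, replicate 2 of H3 0.2 lies in the set of replicate 3, unlike replicate 2 of the control, H3 0.02 and H3 2. Differences at 0.2 mg/mL, in this and the following paragraphs, therefore mix dose with the set of arrays. Between 0.2 and 0.02 mg/mL no probe set was called (0.0%), with 823 at an unadjusted p under 0.05. With the replicate block 2 were called, and 2 with the set of arrays as a block. Between 2 and 0.02 mg/mL 11 were called (0.0375%), 9 higher (0.0307%) and 2 lower (0.00682%) at 2 mg/mL. With only the 6 arrays of these groups in the fit none of the 11 was called. Of the 89 higher probe sets 6 were among them, of the 94 lower 1. For 45 of the 89 and 65 of the 94 the 95% confidence interval of the step from 0.02 to 2 mg/mL lay within a 2-fold change either way, a description only, as the H3 0.02 arrays both chose these probe sets and enter the step.

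T22D1.2 had the largest step: its mean level of 7.02 at 0.02 mg/mL was followed by 10.66 at 0.2 and 12.398 at 2 mg/mL, a step of 5.38 (95% interval 4.33 to 6.43, adjusted p = 0.000578) over the whole range. Y46H3D.8 rose by a further 2.03 (1.47 to 2.59), srlf-13 by 1.64 (1.11 to 2.16) and srlf-12 by 1.43 (0.98 to 1.88). Y38H6A.1 and W03G1.5, which had risen by 1.52 ± 0.21 and 1.35 ± 0.15 at the lowest dose, added 2.21 and 1.64. Among the falling genes cpr-1 lost a further 1.32 (adjusted p = 0.0142), from a mean of 9.91 to 8.59. The other called steps were of genes that had not been called at 0.02 mg/mL. T22D1.21 had a log2 fold-change of 1.17 (adjusted p = 0.353) at 0.02 mg/mL and a step of 5.09 to 2 mg/mL, comt-5, a catechol-O-methyltransferase-type gene, had 1.15 (adjusted p = 0.105) and a step of 2.38. C36F7.22, with means of 3.06 in the control and 3.07 at 0.02 mg/mL, had a step of 1.82. The pair F35E8.10 and F35E8.13 gave −0.91 (adjusted p = 0.183) and went down by a further step of −1.67 (adjusted p = 0.0396).

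By contrast, the step from 0.02 to 2 mg/mL was small for some other strong responders, and larger but not called for others. The pair hsp-16.48 and hsp-16.49 had means of 8.61 at 0.02, 8.74 at 0.2 and 8.76 at 2 mg/mL. pgp-6 stood at 8.53, 8.45 and 8.44, and fmo-2 at 5.44, 4.91 and 5.20. cpr-2 was at 3.72, 3.78 and 3.42, close to the array medians, where a further fall might not be measurable. The pair pud-1.1 and pud-1.2 went on falling, from a mean of 8.06 at 0.02 to 6.35 at 0.2 and 5.44 at 2 mg/mL, but the step was not called.

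**Figure D5:**
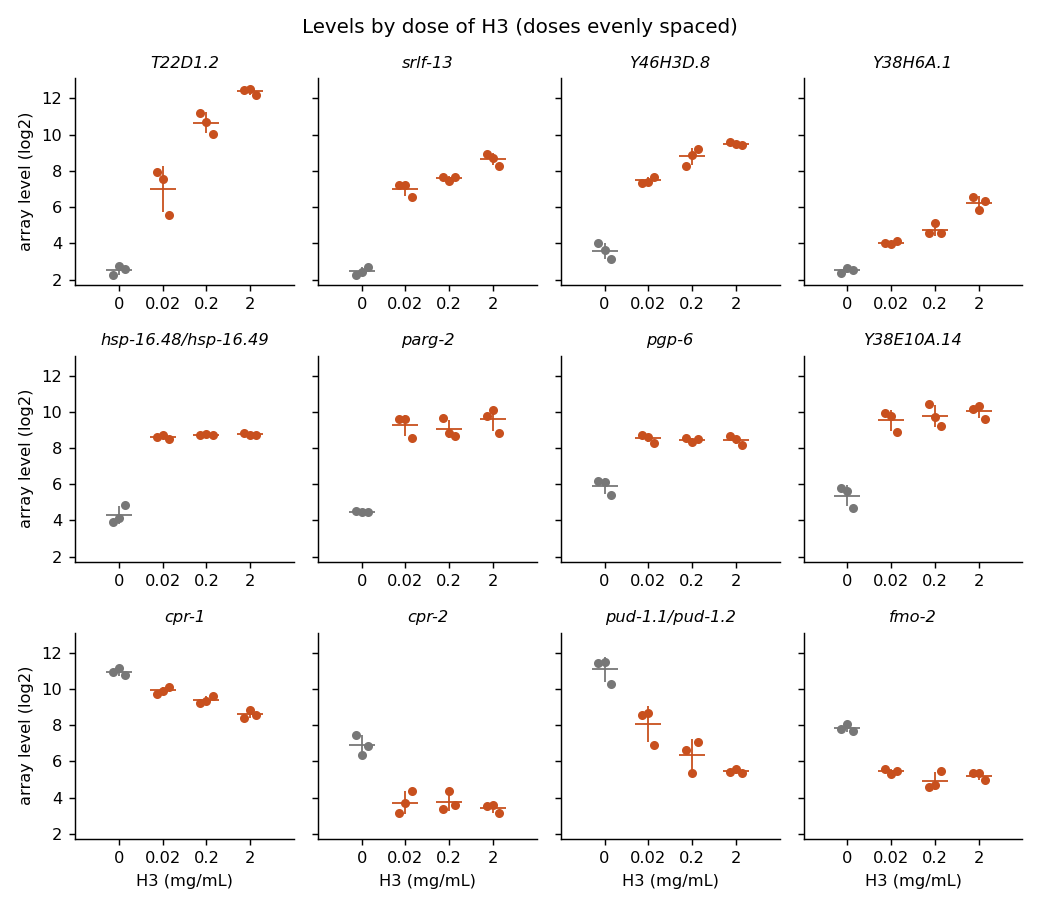
Log2 levels of 12 genes or pairs in the control (0) and at 0.02, 0.2 and 2 mg/mL H3 (evenly spaced, not to scale), with points for the 3 arrays of each group, dashes for means and bars for 1 SD. T22D1.2, srlf-13, Y46H3D.8, Y38H6A.1 and cpr-1 had a called step between 0.02 and 2 mg/mL; the other genes shown did not.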

How the data were processed

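RNA of whole worms was measured on the Affymetrix C. elegans Gene 1.0 ST array. The deposited values are on a log2 scale. Per the labels and the methods, the authors obtained them with RMA in Affymetrix Expression Console and tested them in Partek. The sources used here name no version of these tools. Values were not normalised further, and no probe set was left out. Of 29317 probe sets, 25605 were assigned to 1 gene, 592 to several and 3120 to none. Every value column belongs to a sample.

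limma 3.58.1 in R 4.3.3 fitted 1 mean per group over the 15 arrays of 5 groups, with eBayes, two-sided p-values and Benjamini-Hochberg adjustment over all probe sets. Calls required an adjusted p not above 0.05 and a change of 2-fold or more. Gene names, lists and figures were made with Python 3.11.15, pandas 2.3.3 and matplotlib 3.10.9. The fit was tested on simulated data. Counts of lists took 1 probe set per gene or pair and are set beside the share of all probe sets called, with no test of the lists. A level at or below the median of its array was taken as not shown to be above background.

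Same-numbered control and H3 0.02 arrays deviated together (residual correlations 0.59, 0.48 and 0.80), which was taken as possible pairing. Replicates 1 and 2 with different numbers did so too (0.52 and 0.48), whereas arrays of the 2 sets deviated in opposite ways (−0.70 to −0.61). Pairing by number therefore cannot be told apart from the set of arrays, and the main fit held neither. Replicate 2 of H3 0.2 and of RE lies in the set of replicate 3, so that a block by number over the 15 arrays mixes the sets. This fit is given where it changes a call. Genes are named by a rule: the 20 largest rises and 20 largest falls among called probe sets of 1 gene whose groups do not overlap, genes the study's text names, up to 4 members of each list by size of t, and called genes beside another called gene. Other genes in the text were chosen after their values were seen. The members, the 52 lists and the rule were chosen with earlier results of these data known, and 5 more lists after the values here were seen. Alternatives tried were centring, a filter on dim probe sets, an intensity trend, robust fitting, the methods' test, the 6 arrays alone, blocks, 1 set of arrays, other fold thresholds and leaving out each array.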

Additional observations from a re-analysis of the deposited data

How the results depend on the processing

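The 183 probe sets called between H3 0.02 and control became 185 with each array centred on its median, 176 after a filter on dim probe sets, 174 with an intensity trend, 182 with robust fitting, 156 with the methods' test, 224 with a 1.5-fold threshold and 229 with none. The count moved to 38 with the 6 arrays alone (37 of them shared), to 408 with the set of arrays as a block and to 496 with the 8 arrays of 1 set alone, which holds replicates 1 and 2 of both groups. With the replicate block it was 258 (182 shared) over the 15 arrays and 244 over the 6. Without 1 array it ran from 119 (without control replicate 2) to 245 (without control replicate 3). Between H3 0.2 and H3 0.02 no call became 2 with the replicate block, 2 with the set of arrays as a block and 0 to 1 without 1 array. Between H3 2 and H3 0.02 the 11 calls became 7 with the methods' test, 0 with the 6 arrays alone, 1 with the replicate block over the 6 arrays, 38 with the set of arrays as a block and 5 to 11 without 1 array. The replicate block added the calls of named genes given in the report and, among other named genes, those of rhy-1, nlp-26, oac-7 and cest-32, and ended that of cyp-25A2 (adjusted p = 0.0510). Over the 6 arrays the block did not call cdr-4, rhy-1, pept-1 or oac-7 and ended 30 of the 112 calls among probe sets of named genes. The direction turned only for 6 named genes that were not called. With that set of 8 arrays alone, the log2 fold-change was −0.030 for spe-38, −0.0032 for elt-3, −0.0563 for mtl-2 and 0.0277 for gcs-1, and with each array centred on its median it was 0.0139 for gcs-1. Without 1 array it ran from −0.995 to 0.0583 for the hedgehog-related gene grd-10, −0.13 to 0.27 for elt-3, −0.31 to 0.29 for mtl-2, −0.0453 to 0.0318 for gcs-1 and −0.23 to 0.070 for cpr-6. Why the counts move was not tested. The number of arrays, 3 a group, limits the precision. The values carry no measure of background, and both groups lay at or below the array medians on all arrays for 2 of the 89 higher and 3 of the 94 lower probe sets.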
